A study of Mus musculus with 44 samples.

Results

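Microglia homozygous for the T96K allele of Trem2 were compared with microglia carrying wild-type Trem2, both from female mice with the 5xFAD transgenes, in 13 of the 44 RNA-seq libraries of the series. The members were all female libraries labelled 5xFAD;Trem2T96K/T96K (7 libraries) and all female libraries labelled 5xFAD;Trem2+/+ (6 libraries), chosen from the genotype and sex labels with no measured value involved. Both groups therefore carry the amyloid transgenes, and the Trem2 allele is the labelled difference between them. The mice were 8 months of age, and the cells were sorted from brain by flow cytometry with CD11b and CD45, which are surface markers of microglia that other myeloid cells also carry. The other female libraries were 9 from 5xFAD;Trem2T96K/+ mice and 5 from NonTg;Trem2+/+ mice without the 5xFAD transgenes, and a separately scaled table held 17 libraries from 5xFAD males. The labels give no strain background, no litter and no count of mice per library, so a p-value below measures the spread between these libraries, which may be partly technical.

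Trem2 is a surface receptor of microglia that binds lipids and lipoproteins, and it signals through the adaptor Tyrobp (DAP12), the kinase Syk and the phospholipase Plcg2. Around amyloid plaques, microglia lower the genes of their resting state, such as P2ry12 and Tmem119, and raise a plaque-associated programme with Apoe, Cst7, Clec7a and Spp1, and loss of Trem2 is known to impair the later stage of that programme. The series' title describes T96K as a gain-of-function mutation, and the comparison asks how the homozygous allele alters the transcriptome of microglia from plaque-bearing brain.

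Trem2 lies on the forward strand of chromosome 17, at chr17:48485726-48493472 in mouse build mm9, and codon 96 lies in exon 2 of 5. The stretch below is shown because it holds the labelled change. It was read from the mm9 reference genome, runs 5′ to 3′ over codons 86 to 106 at chr17:48487997-48488059, and has codon 96 in capitals, where the reference encodes threonine (T in T96K, with K for lysine).
Trem2 codons 86 to 106: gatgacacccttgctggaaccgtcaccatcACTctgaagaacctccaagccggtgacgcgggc
The deposited values are RPKM (reads per kilobase of gene model, scaled to the reads of the library and a further factor per library) for whole genes. They carry no information on the allele, so the genotype of a library could not be checked at this codon.

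Depth did not differ detectably between the groups. Reads assigned to genes ranged from 11.02 to 31.7 M (megareads) with a median of 11.8 M in T96K/T96K libraries, and from 7.73 to 42.4 M with a median of 12.03 M in Trem2+/+ libraries (exact two-sided permutation test, p = 0.959). Xist and Y-linked genes matched the female label in all 13 libraries, and microglial markers were abundant, with summed RPKM of the microglia list between 8539 and 16905 in T96K/T96K libraries and between 9236 and 19437 in Trem2+/+ libraries. Libraries were as similar between genotypes as within them: the median Spearman correlation was 0.933 among T96K/T96K libraries, 0.924 among Trem2+/+ libraries and 0.930 between the groups. T96K/T96K library 27 and Trem2+/+ library 25 stood apart along the first principal component. T96K/+ library 22, which enters the comparison with Trem2+/+ only through the shared spread, had sex-linked genes that go against its female label. Many list medians and the counts of called genes are given below with and without these libraries. Values of single genes include them unless a fit is named, and T96K/+ means and list medians include library 22.

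**Figure D1:**
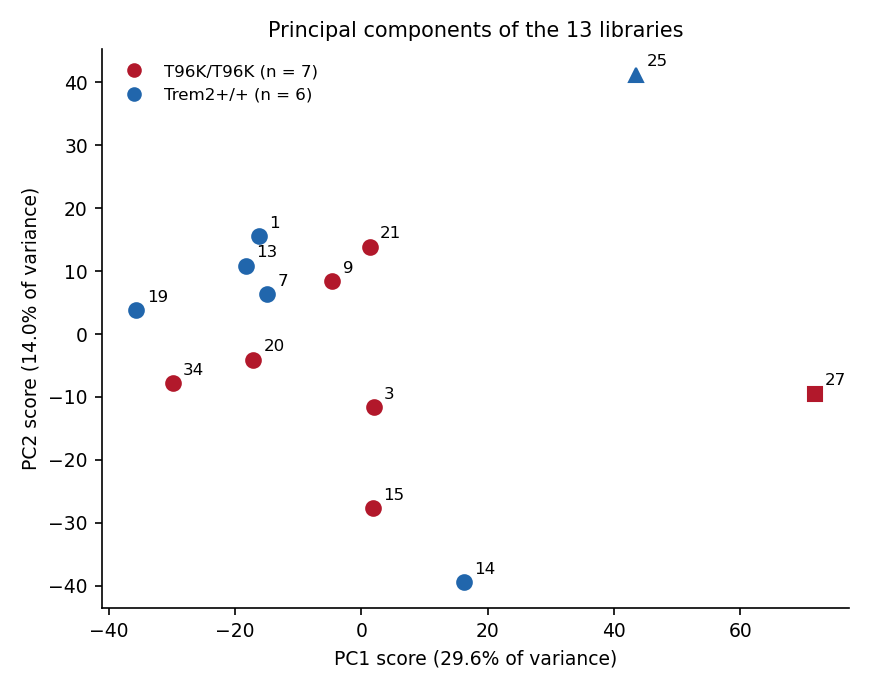
Scores of the 13 libraries on the first and second principal components of log2(RPKM + 1), in score units, with T96K/T96K libraries in red, Trem2+/+ libraries in blue and library numbers beside the points. The first component holds 29.6% of the variance and is led by T96K/T96K library 27 (square, 71.8) and Trem2+/+ library 25 (triangle, 43.5), while the other 11 libraries of both genotypes intermingle.

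No gene differed between T96K/T96K and Trem2+/+ females at an adjusted p under 0.05. Of 14591 genes that reached 1 RPKM in 5 or more female libraries, limma on log2(RPKM + 1) called 0 (0%), and the smallest adjusted p was 0.974. At an unadjusted p under 0.05, 544 genes were found (3.73%), of which 291 were higher (1.99%) and 253 lower (1.73%) in T96K/T96K libraries; the voom fit on recovered reads also called 0, with 723 genes at that unadjusted level. The fold changes were small: 49 genes (0.336%) differed by at least 2-fold, 27 of them higher and 22 lower, and 90% of genes lay between −0.31 and 0.42 on the log2 scale. Over all genes tested, 7098 (48.6%) had a positive and 7493 a negative log2 fold change. List members below were measured in the same libraries, so their signs are not independent of each other. The 95% interval of the difference lay within 2-fold of no change for 12877 genes (88.3%) and within 1.5-fold for 8968 genes (61.5%). Variation between libraries of a genotype was alike too, with a median SD on the log2 scale of 0.31 in T96K/T96K and 0.32 in Trem2+/+ libraries. Every gene below has an adjusted p of 0.974 or more by limma with Benjamini-Hochberg adjustment, so none passed the test, and fold changes are T96K/T96K minus Trem2+/+ differences of log2(RPKM + 1), a scale that understates the differences of low genes.

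Trem2 itself differed by less than the spread between libraries. Trem2 ran from 677 to 1449 RPKM with a median of 876 in T96K/T96K libraries, against 609 to 1831 RPKM with a median of 940 in Trem2+/+ libraries. The ranges overlap almost wholly, the highest Trem2+/+ value being library 25, and the log2 fold change was −0.11 with a 95% interval from −0.67 to 0.45. In NonTg females, which lack the amyloid transgenes, Trem2 averaged 289 ± 172 RPKM (SD, n = 5). Tyrobp, the adaptor, averaged 9417 ± 4530 RPKM in T96K/T96K (SD, n = 7) and 9606 ± 4830 RPKM in Trem2+/+ libraries (SD, n = 6), a log2 fold change of 0.00 with an interval from −0.75 to 0.76. Syk, the kinase, averaged 14.3 ± 4.47 RPKM in T96K/T96K libraries and 14.1 ± 5.94 RPKM in Trem2+/+ libraries, and its log2 fold change was 0.04 (interval −0.44 to 0.52). Plcg2 averaged 37.6 ± 9.19 RPKM in T96K/T96K libraries and 36.8 ± 14.1 RPKM in Trem2+/+ libraries, with a log2 fold change of 0.06 (interval −0.40 to 0.52).

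The wider signalling list was as evenly divided. Of 25 genes of Trem2 signalling, a list that includes Trem2 itself and its adaptors Tyrobp and Hcst, 24 were tested, 0 were called, and 12 lay above and 12 below zero with a median log2 fold change of −0.003, against −0.01 over all genes tested. Its members with the smallest unadjusted p by limma were Grb2, an adaptor that links receptors to Ras (log2 fold change −0.13), and Lat2, a membrane adaptor of myeloid and B cells (−0.27). Among 12 tested genes for Trem2-cleaving proteases and Trem relatives the median was −0.10 (−0.03 without libraries 25 and 27), with Adam17, a protease that sheds Trem2, at −0.25 and Ncstn, a γ-secretase subunit, at −0.29; none was called.

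The plaque-associated genes spanned a wide range within each genotype. Apoe, the lipid carrier, ran from 622 to 15730 RPKM with a median of 4991 in T96K/T96K libraries, against 762 to 15221 RPKM with a median of 1123 in Trem2+/+ libraries. The 2 highest values were T96K/T96K library 21 and Trem2+/+ library 19, 1 in each group, and 6 of 7 T96K/T96K values exceeded the Trem2+/+ median. The log2 fold change of 0.74 has an interval from −0.96 to 2.44, the widest among the 17 genes chosen for the pathway. In both groups every library numbered 19 or above had more Apoe than every library numbered under 19. The log2 fold change was −0.36 within the libraries numbered 19 or above (4 T96K/T96K and 2 Trem2+/+) and 0.39 within those numbered under 19 (3 T96K/T96K and 4 Trem2+/+).

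Cst7, a cysteine protease inhibitor induced in plaque-associated microglia, ran from 759 to 3336 RPKM (median 1527) in T96K/T96K libraries, against 456 to 4037 RPKM (median 1123) in Trem2+/+ libraries. Its ranges overlap, the highest Trem2+/+ values being libraries 25 and 19, and both groups lie far above the NonTg mean of 16.3 ± 21.1 RPKM (SD, n = 5). Clec7a, the receptor dectin-1, averaged 340 ± 93.7 RPKM in T96K/T96K and 438 ± 155 RPKM in Trem2+/+ libraries, a log2 fold change of −0.34 (interval −1.17 to 0.50). Itgax, the integrin CD11c, averaged 65.8 ± 16.1 RPKM in T96K/T96K and 81.5 ± 42.8 RPKM in Trem2+/+ libraries (−0.19, interval −1.02 to 0.65). Its T96K/T96K values all lay inside the Trem2+/+ range, whose top was library 25 at 154 RPKM.

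Spp1, which encodes osteopontin, ran from 152 to 980 RPKM (median 360) in T96K/T96K libraries, against 271 to 1290 RPKM (median 606) in Trem2+/+ libraries. Its log2 fold change was −0.66 with an interval from −2.02 to 0.69, and only 2 of 7 T96K/T96K libraries exceeded the Trem2+/+ median. Lpl, lipoprotein lipase, stood at −0.29 (interval −0.97 to 0.39). Axl, a receptor for apoptotic cells, was at −0.19, Gpnmb, a glycoprotein of lipid-laden macrophages, at −0.13, and Igf1, a growth factor, at −0.13, each with an interval that spans zero. Ccl4, a chemokine, and Dkk2, a secreted Wnt antagonist, had the smallest unadjusted p of the plaque list, with log2 fold changes of −0.33 and −0.41.

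Most plaque-associated genes had a negative sign, a share that varied between fits and turned without Trem2+/+ library 25. Of 25 plaque-associated genes, all tested and 0 called, 21 had a negative log2 fold change, with a median of −0.17. Without Trem2+/+ library 25, in which Igf1, Itgax, Cst7, Spp1 and Trem2 were the highest of the group, 15 of the 25 were positive and the median was 0.02. Without both library 25 and T96K/T96K library 27 the median was −0.06. The 14 genes of the later, Trem2-dependent stage of disease-associated microglia (DAM stage 2) had 11 negative signs, a median of −0.20 with all libraries, a median of −0.05 without library 25, and a median of −0.09 without libraries 25 and 27. The 7 genes of DAM stage 1, which include Apoe, Tyrobp and the lysozyme gene Lyz2 (0.38), had a median of −0.03 with all libraries and of 0.09 without libraries 25 and 27. With the library-number range as a covariate the medians moved further from zero, to −0.28 for the plaque list and −0.33 for DAM stage 2. Over the 31 alternatives the plaque median ran from −0.52 to 0.18 and the DAM stage 2 median from −0.55 to 0.08. The DAM stage 1 median ran from −0.48, within the libraries numbered 19 or above, to 0.29, with marker scores as covariates.

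**Figure D2:**
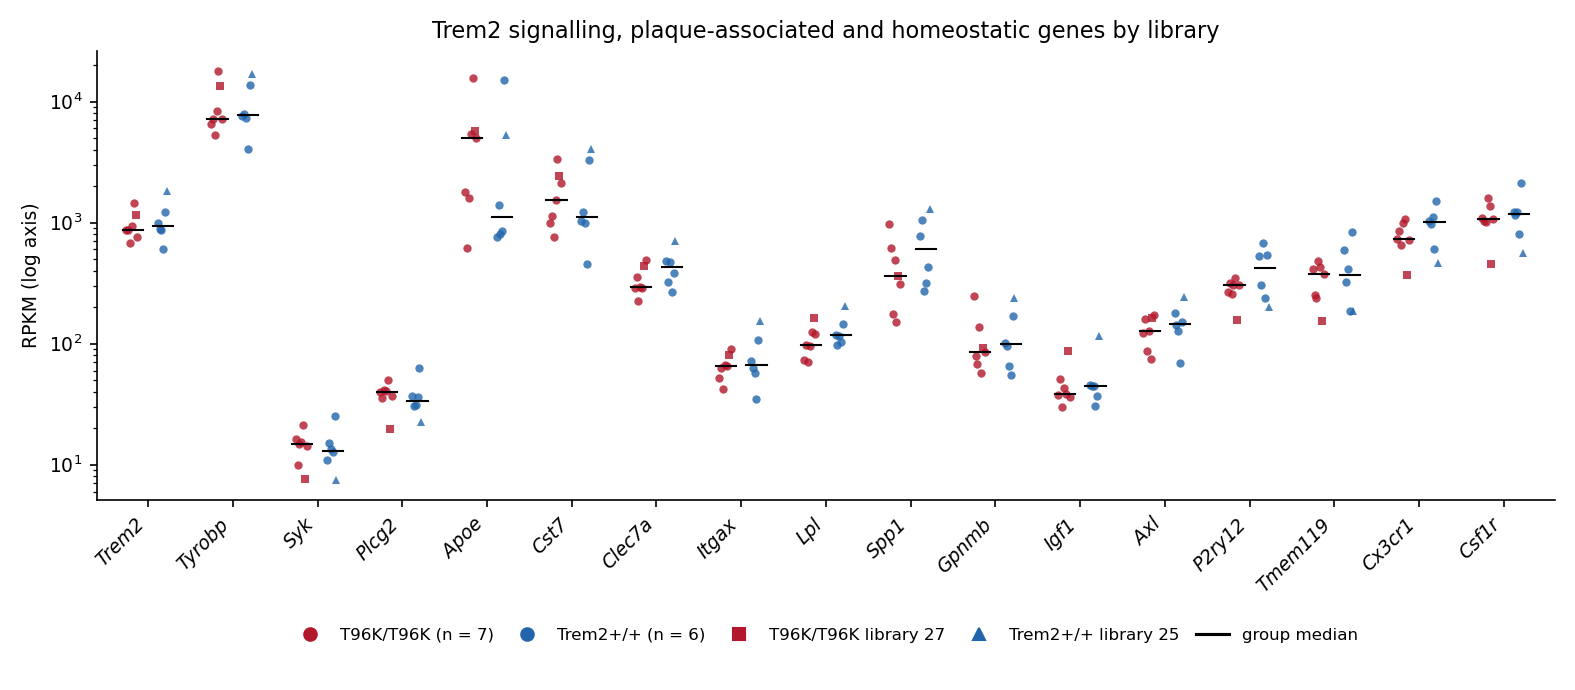
RPKM on a log axis of 17 genes of Trem2 signalling, the plaque-associated programme and the resting state in each of the 7 T96K/T96K libraries (red, left) and 6 Trem2+/+ libraries (blue, right), with group medians as bars. The groups overlap for every gene shown, Apoe has the broadest spread in both, and library 25 (triangle) tops the Trem2+/+ group for Trem2, Cst7, Spp1, Itgax and Igf1.

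Resting-state genes also differed by less than their spread. P2ry12, the ADP receptor that guides microglial processes, ran from 157 to 352 RPKM (median 303) in T96K/T96K libraries, against 200 to 679 RPKM (median 419) in Trem2+/+ libraries. No T96K/T96K library exceeded the Trem2+/+ median, but Trem2+/+ libraries 14, 25 and 7 fell within the T96K/T96K range, and the log2 fold change was −0.47 (interval −1.12 to 0.18). Tmem119, a microglial surface protein, averaged 336 ± 122 RPKM in T96K/T96K and 424 ± 256 RPKM in Trem2+/+ libraries (−0.21, interval −0.98 to 0.55).

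Cx3cr1, the fractalkine receptor, stood at −0.26 and Csf1r, the receptor for the survival factor CSF-1, at −0.08. P2ry13, a second ADP receptor, stood at −0.36. Of 28 resting-state genes tested, 17 were negative and 11 positive, 0 were called, and the median was −0.09.

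Genes of degradation and lipid handling showed no called member. Ctsc, the protease cathepsin C, averaged 111 ± 29.2 RPKM in T96K/T96K libraries and 143 ± 22.6 RPKM in Trem2+/+ libraries, a log2 fold change of −0.40 with an unadjusted p of 0.0400 by limma. Library 27, at 54.4 RPKM, lay far below the other T96K/T96K libraries for Ctsc. Of 40 lysosomal entries, 32 were negative, and every interval lay within 2-fold of no change; the lysosome median was −0.10 and moved to −0.03 without Trem2+/+ library 25 or without Trem2+/+ library 19, to −0.04 without libraries 25 and 27, and to −0.20 without Trem2+/+ library 14. Pltp, phospholipid transfer protein, averaged 282 ± 131 RPKM in T96K/T96K and 168 ± 59.0 RPKM in Trem2+/+ libraries (0.73, unadjusted p = 0.0448). Its highest T96K/T96K value, 561 RPKM, was library 34, which also had the highest endothelial marker sum. The 28 tested lipid-handling genes had a median of −0.12, which was −0.03 without libraries 25 and 27 and −0.18 with the library-number range as a covariate. The 22 tested genes of cholesterol synthesis had a median of −0.04 with all libraries and of −0.01 without libraries 25 and 27.

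Interferon and antigen presentation lists had positive medians with all libraries, and their signs turned among the libraries numbered 19 or above. Stat2, a transducer of interferon signals, ran from 21.2 to 39.3 RPKM (median 27.1) in T96K/T96K libraries, against 12.7 to 29.1 RPKM (median 19.04) in Trem2+/+ libraries. All 7 T96K/T96K values lay above the Trem2+/+ median, but 3 Trem2+/+ libraries reached into their range, and the log2 fold change was 0.49 with an unadjusted p of 0.0130 by limma. Of 38 type I interferon genes tested, 28 were positive with a median of 0.09; in the libraries numbered 19 or above 10 were positive and the median was −0.10. MHC class I genes had a median of 0.09 over 16 tested, which was 0.20 without libraries 25 and 27 and −0.08 in the libraries numbered 19 or above. MHC class II genes had a median of 0.10 over 9 tested, which was 0.23 without libraries 25 and 27, −0.05 with the library-number range as a covariate, −0.13 without Trem2+/+ library 14 and −0.45, with 0 positive, in the libraries numbered 19 or above. The class I members H2-Q4 and H2-Q6 belong to a family of related genes between which reads may be split.

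Further pathway lists had 0 called genes and negative medians. Each median was closer to zero without libraries 25 and 27, and further from zero with the library-number range as a covariate. With that covariate it was −0.21 for inflammatory, −0.20 for unfolded protein response and −0.15 for complement genes. It was −0.14 for phagocytosis receptors, −0.14 for oxidative phosphorylation and −0.13 for proliferation genes. Inflammatory genes had a median of −0.18 over 33 tested and of −0.01 without libraries 25 and 27. Among them Casp1, the inflammasome protease, stood at −0.36 and Nos2, inducible nitric oxide synthase, at 0.46. Unfolded protein response genes had a median of −0.19 over 22 and of −0.11 without libraries 25 and 27. Its members with the smallest unadjusted p were the endoplasmic reticulum foldases Pdia3 (−0.34) and Pdia4 (−0.34), for both of which Trem2+/+ library 14 lay far below the other Trem2+/+ libraries. Complement genes had a median of −0.14 over 16 and of −0.05 without libraries 25 and 27. Glycolysis and hypoxia genes had a median of −0.16 over 26, of −0.23 with the covariate and of −0.10 without libraries 25 and 27. Phagocytosis receptors had a median of −0.11 over 28 and of −0.04 without them, where Scarf1, a scavenger receptor, stood at 0.53 and Fcgr4, an Fc receptor, at −0.38. Of 45 oxidative phosphorylation genes, 42 were negative with a median of −0.09. Without Trem2+/+ library 25, 26 of them were positive with a median of 0.04; without Trem2+/+ library 19 the median was −0.20, and without libraries 25 and 27 it was −0.02. Proliferation genes had a median of −0.09 over 25 and of −0.01 without libraries 25 and 27, with Pcna, the replication clamp, at −0.27. Over the 31 alternatives the inflammatory median ran from −0.37 to −0.01 and the unfolded protein response median from −0.25 to −0.10. The complement median ran from −0.24 to −0.03 and the glycolysis and hypoxia median from −0.27 to −0.08. The other medians of this paragraph reached positive values in some alternatives.

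Of 37 tested Alzheimer disease risk genes, 19 were positive and 18 negative with a median of 0.00. Ms4a6d, a member of the Ms4a family of membrane proteins whose human locus is linked to soluble TREM2, averaged 25.3 ± 9.22 RPKM in T96K/T96K and 38.0 ± 12.7 RPKM in Trem2+/+ libraries (−0.59, unadjusted p = 0.0383). Fermt2, an integrin activator, averaged 9.58 ± 4.15 RPKM in T96K/T96K and 6.01 ± 1.56 RPKM in Trem2+/+ libraries (0.54, unadjusted p = 0.0354).

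**Figure D3:**
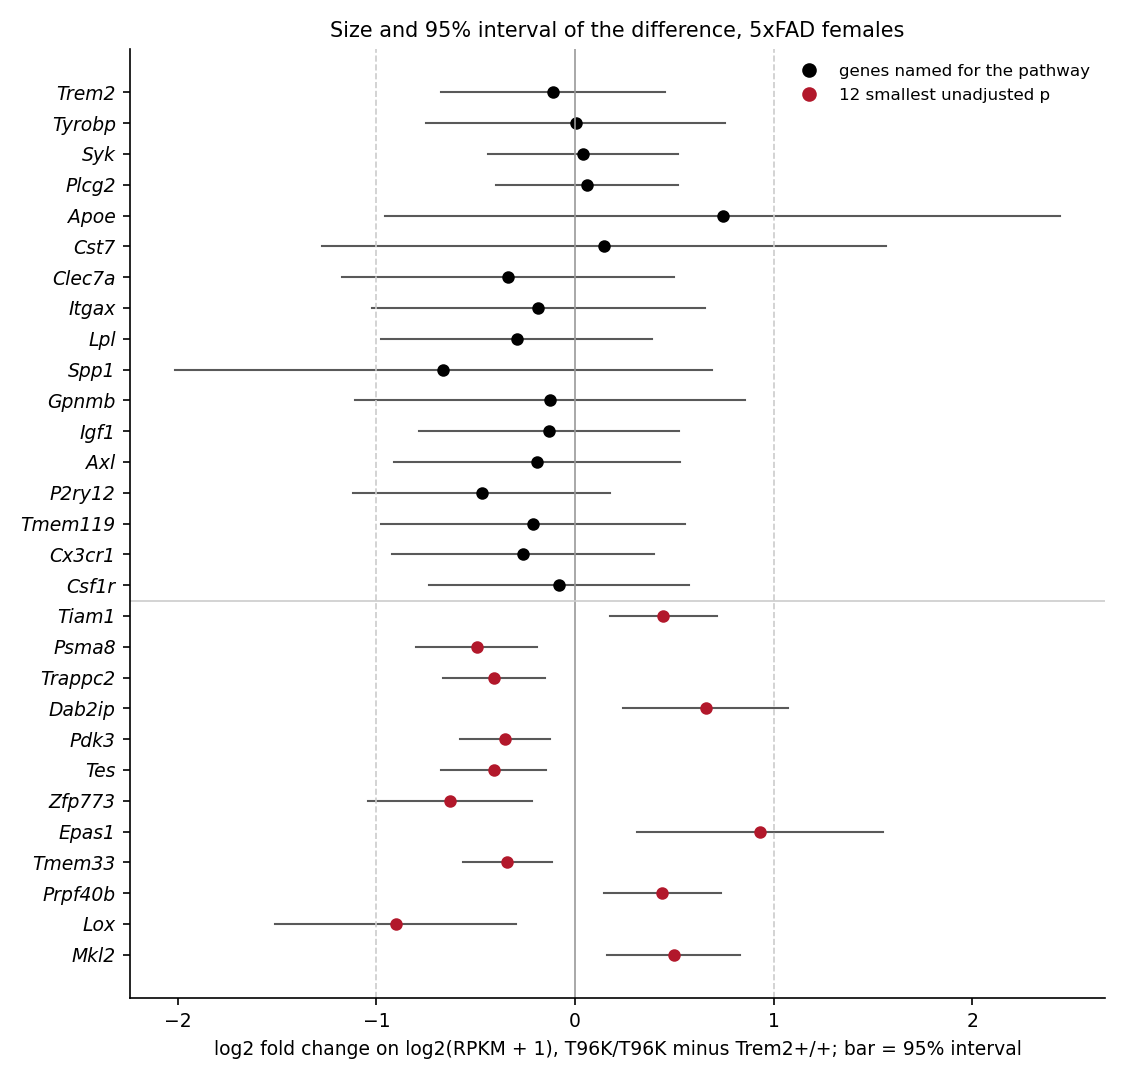
Log2 fold change, T96K/T96K minus Trem2+/+, with its 95% interval for the 17 pathway genes (black, top) and the 12 genes with the smallest unadjusted p among those of at least 2 RPKM (red, bottom); dashed lines mark 2-fold. All 17 upper intervals span zero, from the narrow ones of Plcg2 and Syk to Apoe, which reaches 2.44, while the lower genes were selected by p and their intervals exclude zero by that choice.

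The genes with the smallest unadjusted p were of mixed function. Tiam1, an activator of the GTPase Rac, ran from 1.60 to 2.62 RPKM (median 2.20) in T96K/T96K libraries, against 0.941 to 2.02 RPKM (median 1.24) in Trem2+/+ libraries. Only Trem2+/+ library 14 reached into the T96K/T96K range, and the log2 fold change was 0.45 with an unadjusted p of 0.00209 by limma. Epas1, the hypoxia-inducible factor HIF-2α, which is abundant in endothelium, ran from 27.4 to 121 RPKM (median 35.9) in T96K/T96K libraries, against 18.2 to 28.4 RPKM (median 20.6) in Trem2+/+ libraries. Its top values were T96K/T96K libraries 34 and 27, the groups overlap at the margin, and the log2 fold change was 0.93. Dab2ip, a Ras GTPase-activating protein, was also highest in libraries 34 and 27 and had a log2 fold change of 0.66.

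Prpf40b, a splicing factor, stood at 0.44 and Mkl2, a coactivator of serum response factor, at 0.50. On the lower side, Lox, the collagen-crosslinking lysyl oxidase, averaged 6.53 ± 3.46 RPKM in T96K/T96K and 12.1 ± 3.07 RPKM in Trem2+/+ libraries, a log2 fold change of −0.90 with an unadjusted p of 0.00511 by limma. Lox averaged 10.3 RPKM in T96K/+ and 1.17 RPKM in NonTg females. Psma8, a proteasome subunit best known from testis, stood at −0.49, Trappc2, a vesicle tethering factor, at −0.41, Tes, a focal adhesion protein, at −0.41, Tmem33, a membrane protein, at −0.34 and Zfp773, a zinc finger protein, at −0.63. These genes and Pdk3 were the 12 with the smallest unadjusted p among genes with a mean of at least 2 RPKM in either group, predicted gene models left out, and none has an adjusted p under 0.974.

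In 5 genes (0.0343%) the 2 groups did not overlap at all, 3 with T96K/T96K above (0.0206%) and 2 with T96K/T96K below (0.0137%). Pdk3, a kinase that inhibits pyruvate dehydrogenase, ran from 9.25 to 13.5 RPKM (median 11.2) in T96K/T96K libraries, against 13.8 to 19.8 RPKM (median 14.1) in Trem2+/+ libraries. All T96K/T96K values thus lay below all Trem2+/+ values, by a narrow margin, and the log2 fold change was −0.35 (interval −0.58 to −0.12). In T96K/+ females Pdk3 averaged 11.9 RPKM, and in males its log2 fold change was 0.11. Cdh5, the junctional cadherin of endothelial cells, ran from 7.28 to 27.99 RPKM (median 8.63) in T96K/T96K libraries, against 3.60 to 7.28 RPKM (median 5.35) in Trem2+/+ libraries. Its groups are separate only in the third decimal place, and library 34 is far above the rest. The other members, named after their values were seen, were Axin2, a negative regulator and target of Wnt signalling (0.37), the gene model Gm11399 (1.20) and the small nucleolar RNA gene SNORA65 (−1.37).

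Transcripts of vascular cells and neutrophils had the largest positive medians of any list. In bulk libraries, more cells of a type and more RNA per cell cannot be told apart. All 12 markers of endothelial cells had positive log2 fold changes, with a median of 0.63; 0 were called, and 6 had an unadjusted p under 0.05, where 1.99% of all genes were higher at that level. Abcb1a, a drug efflux pump of the blood-brain barrier, ran from 13.2 to 48.9 RPKM (median 17.3) in T96K/T96K libraries, against 4.13 to 15.5 RPKM (median 11.7) in Trem2+/+ libraries. The groups overlap at the margin, and library 34 again was the highest. The summed RPKM of the list ran from 1045 to 3463 (median 1531) in T96K/T96K libraries, against 665 to 1405 (median 1170) in Trem2+/+ libraries.

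The median of the endothelial cells list varied with the libraries used. With single libraries left out it ran from 0.43, without T96K/T96K library 34, to 0.77, without T96K/T96K library 21, and the members at an unadjusted p under 0.05 numbered 2 to 10. These members numbered 2 without T96K/T96K library 34 or Trem2+/+ library 1 or 19, and 3 without Trem2+/+ library 25. With single libraries left out, 379 to 1028 of all 14591 genes were at that level in either direction. Without both library 25 and library 27 the list median was 0.49 with 1 such member, where 351 of all genes were at that level. In the libraries numbered under 25 the list median was 0.28 with 0 such members, where 365 of all genes were. In those numbered 19 or above it was 1.28, and all 12 members were positive in each of these fits. Mural cells, the pericytes and smooth muscle cells of vessels, had 9 of 9 tested markers positive with a median of 0.52, including the pericyte genes Vtn (0.70) and Kcnj8 (0.69). The part of vascular transcripts in the values of Epas1, Dab2ip, Pltp and Fermt2 was not tested. A fit that adjusted for scores of endothelial, oligodendrocyte and neutrophil markers called 0 genes and, by its construction, took the endothelial median to −0.01. Single genes whose sign turned in that fit, Pltp among them (−0.041), are listed in the last section.

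Of 11 neutrophil markers tested, 10 were positive with a median of 0.91, and 0 were called or had an unadjusted p under 0.05. Camp, an antimicrobial peptide of neutrophil granules, ran from 47.6 to 181 RPKM (median 66.4) in T96K/T96K libraries, against 15.9 to 103 RPKM (median 40.2) in Trem2+/+ libraries. The highest values were library 27 in T96K/T96K and library 25 in Trem2+/+, and without both libraries the median of the list was 1.20. With the library-number range as a covariate the list median was 0.69, and over the 31 alternatives it ran from 0.11 to 1.38. Lcn2, a siderophore-binding granule protein, stood at 1.05 (interval −0.19 to 2.28). T96K/+ females did not lie between the homozygous and wild-type groups for these genes: the list's median was 1.93 for T96K/T96K minus T96K/+ and −0.97 for T96K/+ minus Trem2+/+, comparisons that share libraries with the one above.

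Lists of other cell types were divided in sign. Erythroid markers had 5 of 5 tested negative with a median of −0.63, and their sum ran from 8.68 to 266 RPKM in T96K/T96K and from 23.001 to 194 RPKM in Trem2+/+ libraries; the α- and β-globin genes are close paralogs between which reads may be split. Oligodendrocyte markers had a median of −0.27, with Mag, a myelin glycoprotein, at −0.48 (unadjusted p = 0.0274) and Mobp, a myelin protein, at 1.20. The sum of the oligodendrocyte list was highest in library 27 in T96K/T96K (4087 RPKM) and in library 25 in Trem2+/+ (1312 RPKM), while the group medians were 367 RPKM in T96K/T96K and 143 RPKM in Trem2+/+ libraries. B cell markers had 5 of 5 negative, with Igkc, the immunoglobulin κ constant region, at −1.55 (interval −3.32 to 0.22). Of the 13 T and NK cell markers 1 could be tested, and Cd8a and Ncr1 were under 0.1 RPKM in all 13 libraries.

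**Figure D4:**
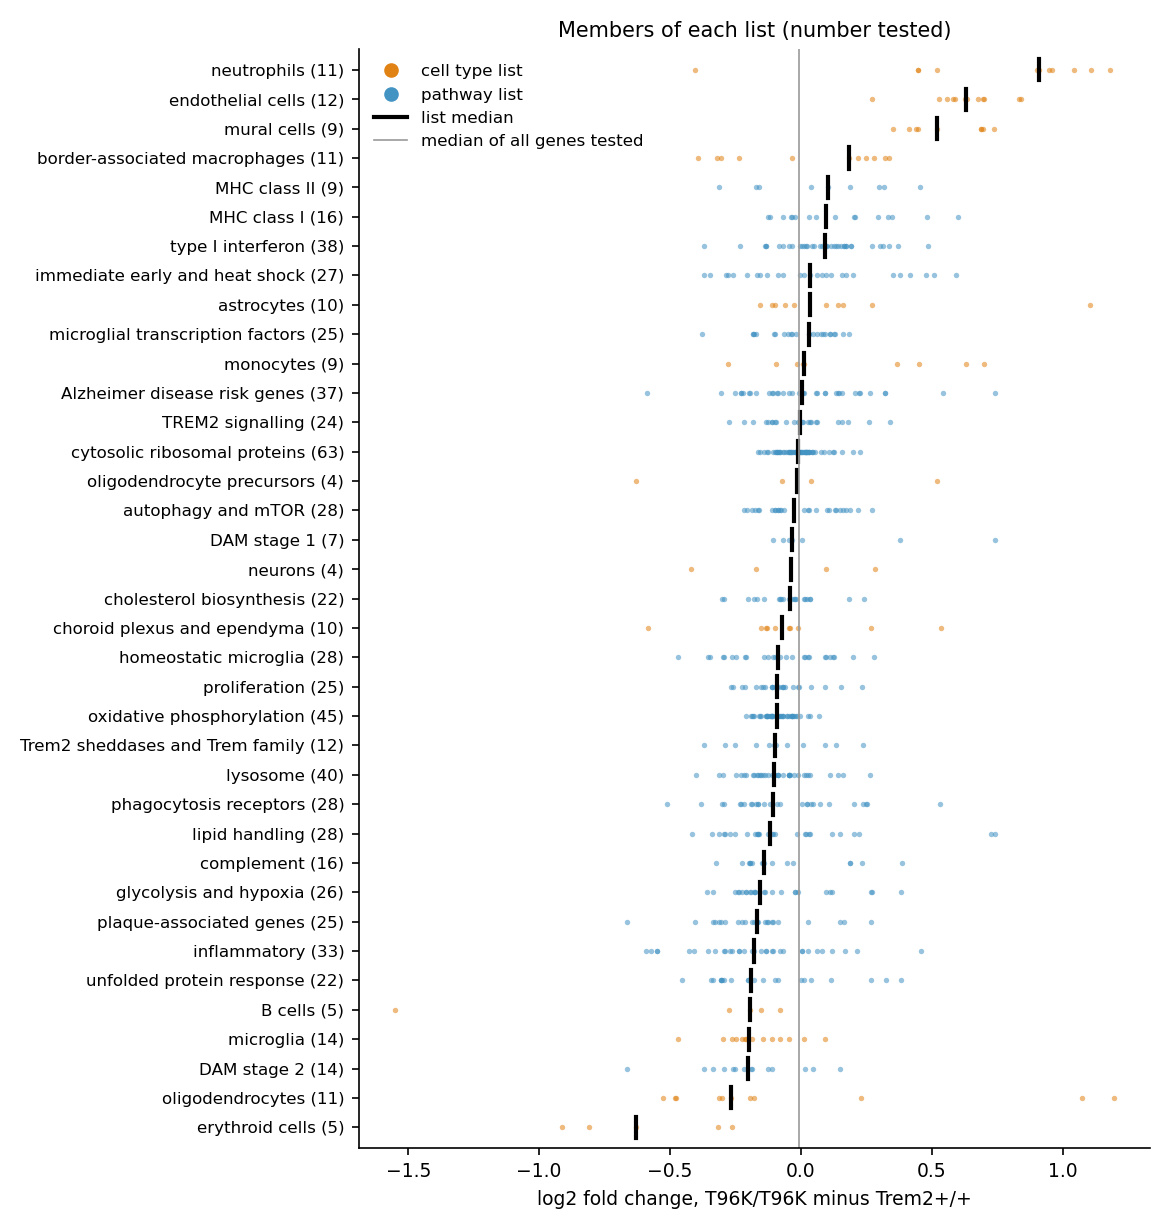
Log2 fold change, T96K/T96K minus Trem2+/+, of each tested member of the 37 lists with at least 3 tested genes, with the list median as a black bar, the median of all genes tested as a grey line and the number tested in brackets. The neutrophil, endothelial and mural medians (0.91, 0.63 and 0.52) are the highest and the erythroid median (−0.63) the lowest, and no member was called.

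**Figure D5:**
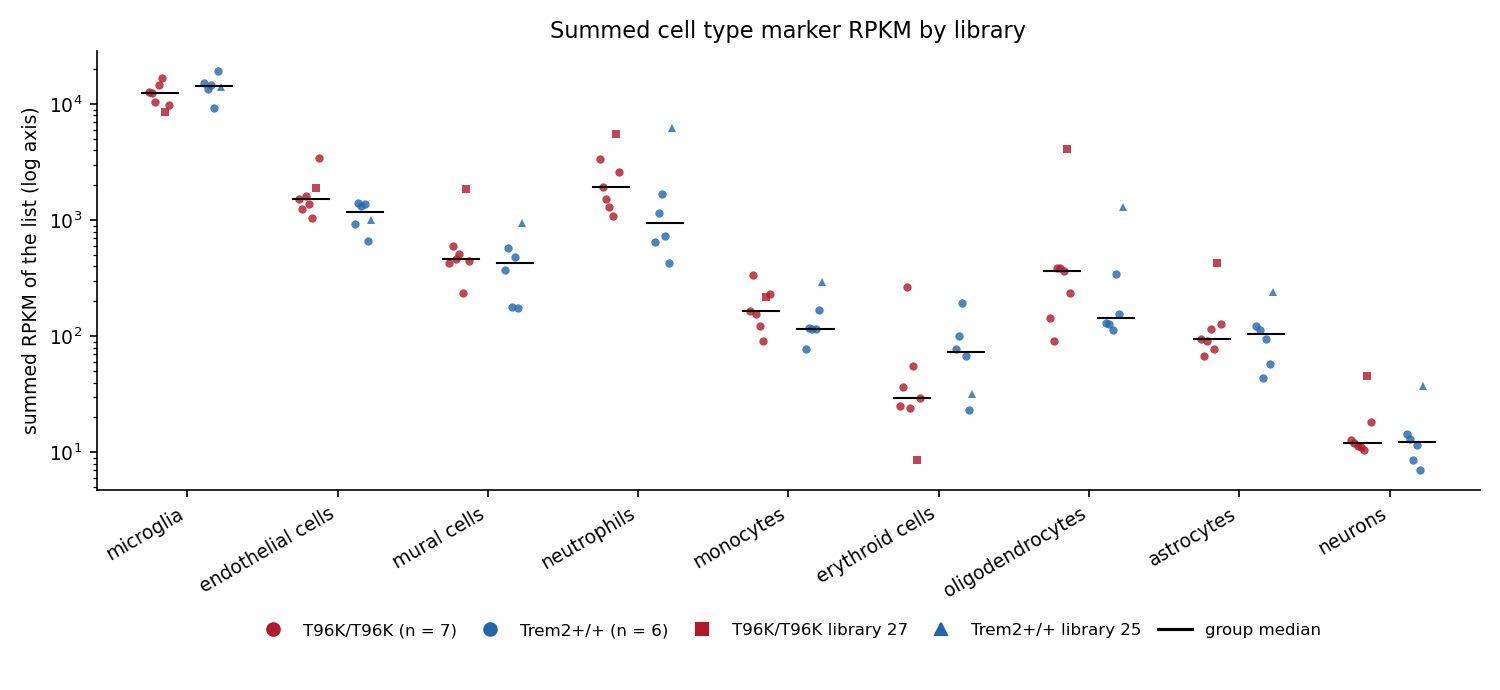
Summed RPKM on a log axis of 9 cell type marker lists in each T96K/T96K library (red, left) and Trem2+/+ library (blue, right), with group medians as bars. The groups overlap for every list, and T96K/T96K library 27 (square) and Trem2+/+ library 25 (triangle) have the highest neutrophil, mural, oligodendrocyte, astrocyte and neuron sums of their groups.

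The heterozygous females and the males gave no called gene either. T96K/T96K minus T96K/+ females had 0 of 14591 genes called (0%) and 514 at an unadjusted p under 0.05 (3.52%), with 0 and 570 by voom. The Trem2+/+ libraries enter neither mean of this comparison but share its estimate of the spread; with only the groups compared in the fit, 0 genes were called and 595 were found unadjusted. The T96K/+ group holds library 22, and without it 0 were called and 505 were found unadjusted. Apoe stood at 0.32, Trem2 at 0.07, Spp1 at 0.32, P2ry12 at −0.38 and Tmem119 at −0.63 in T96K/T96K minus T96K/+, none called. The plaque-associated list had a median of 0.16 in T96K/T96K minus T96K/+ and of −0.37 in T96K/+ minus Trem2+/+. By these medians T96K/+ females did not lie between the homozygous and wild-type groups, in comparisons that share libraries.

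In 5xFAD males, T96K/T96K (n = 6) minus Trem2+/+ (n = 5) had 0 of 13845 genes called (0%) and 1193 at an unadjusted p under 0.05 (8.62%). Male log2 fold changes were −0.18 for Trem2, −0.91 for Apoe, −0.44 for Cst7, −0.23 for Spp1, −0.16 for P2ry12 and 0.09 for Cdh5. The difference between the sexes in the T96K/T96K effect had 0 of 13636 genes called (0%) and 760 unadjusted (5.57%), with 0 and 789 by voom. Of the lists above, the neutrophil median was −0.04, the endothelial median 0.22 and the mural median 0.40 in males. The male medians of the plaque-associated (−0.23), DAM stage 2 (−0.22) and lysosome lists (−0.18) were negative, as in the main female fit. Those of type I interferon (−0.13) and oxidative phosphorylation genes (0.23) had the opposite sign to that fit. Over the 31 alternatives each of these female medians took both signs. The highest were 0.18 for the plaque-associated, 0.08 for the DAM stage 2 and 0.05 for the lysosome list. All male values come from a table the authors scaled separately.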

How the data were processed

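RNA of sorted microglia was amplified with SMART-Seq v4 and made into Nextera XT libraries, per the labels' protocols; this chemistry keeps no strand, so reads of overlapping antisense genes cannot be told apart. The authors deposited RPKM per gene in a table for each sex. Reads were aligned to mm9 with STAR, per the series' design text, and the submitters' processing notes also name HTSeq and edgeR, without versions; those notes do not say how they were used. Each value in the deposited RPKM tables came out as a whole number of reads (100% of values, within 0.01), which gave the depth per library. Counting error is then small beside the spread between libraries for all but the lowest genes. The values also held a scaling factor per library beyond its reads. That factor ran from 0.840 to 1.05 in T96K/T96K and from 0.800 to 1.09 in Trem2+/+ libraries (exact two-sided permutation test, p = 0.676). A set of 25 gene names stored as dates was restored from the gene identifiers.

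Genes that reached 1 RPKM in 5 or more female libraries were tested with limma 3.58.1 in R 4.3.3 (log2(RPKM + 1), 1 mean per genotype over all 27 female libraries, trend and robust empirical Bayes, Benjamini-Hochberg adjustment over all genes, called under 0.05). The comparison between sexes used all 44 libraries and genes passing the filter in both tables. Depth and the scaling factor were compared with exact permutation tests. Libraries were grouped by genotype and sex labels, and no library was left out. Alternatives changed the pseudocount (0.1 or 5), filter, scaling, weights, model (voom on recovered reads), covariates and libraries used. The comparison, its 38 gene lists and the tests were chosen with earlier results of these data known. Genes named are 17 fixed ones, the 12 with the smallest p and at least 2 RPKM, the 2 with the smallest p of each list, and genes of at least 2 RPKM whose groups do not overlap, predicted models left out; genes that this rule chose and that are not named are not reported here. Library numbers are those of the labels.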

Additional observations from a re-analysis of the deposited data

Results flagged for a closer look

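Each named gene and 3 library totals (102 measures, 204 genotype groups) were screened for a library far from all others of its genotype, by Dixon's ratio at the 95% level. Of the 204 groups 23 were flagged, 7 of them in T96K/T96K library 27. Chance flags about 1 in 20 independent groups. These groups are the same libraries measured repeatedly, on genes partly chosen by small p, so an excess over chance was not tested.

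T96K/T96K library 27 lay below the other 6 T96K/T96K libraries for 7 genes. These were the ADP receptors P2ry12 (157 RPKM, against 258 to 352) and P2ry13 (127 RPKM, against 231 to 352), the CSF-1 receptor Csf1r (456 RPKM, against 1013 to 1600) and the phospholipase Plcg2 (19.6 RPKM, against 35.3 to 49.7). The others were the focal adhesion gene Tes (8.74 RPKM, against 11.1 to 13.2), the γ-secretase subunit Ncstn (36.4 RPKM, against 70.4 to 94.9) and cathepsin C, Ctsc (54.4 RPKM, against 101.4 to 148).

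Among Trem2+/+ libraries, library 25 lay above the other 5 for Igf1 (115 RPKM, against 30.4 to 45.6), Pdk3 (19.8 RPKM, against 13.8 to 15.4) and the neuronal gene Stmn2 (26.8 RPKM, against 5.12 to 9.57). Library 25 was also the deepest, with 42.4 M reads, against 7.73 to 12.4 M in the other Trem2+/+ libraries. Trem2+/+ library 14, the shallowest, lay below the other 5 for Grb2 (24.9 RPKM, against 32.3 to 34.6), Fcgr4 (17.5 RPKM, against 33.2 to 47.5), Pdia3 (242 RPKM, against 365 to 411) and Pdia4 (83.5 RPKM, against 114 to 126).

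T96K/T96K library 34 lay above the rest for the endothelial genes Cdh5 (27.99 RPKM, against 7.28 to 13.2) and Abcb1a (48.9 RPKM, against 13.2 to 20.3). T96K/T96K library 9 was high for Uqcrfs1 (69.1 RPKM, against 51.0 to 57.0), Pcna (26.9 RPKM, against 18.4 to 20.6) and Ugt8a (1.30 RPKM, against 0.0844 to 0.492), and T96K/T96K library 21 for mevalonate kinase, Mvk (6.16 RPKM, against 3.92 to 4.49). Trem2+/+ library 7 was high for Kcnj8 (1.77 RPKM, against 0.521 to 0.696), and Trem2+/+ library 19 for Lyve1, a marker of border macrophages and lymphatics (3.02 RPKM, against 0 to 0.227).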

How the results depend on the processing

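Of the alternatives run on T96K/T96K minus Trem2+/+ in females, 0 genes were called in every one except array weights (1 gene) and the fit without Trem2+/+ library 14 (1 gene), where the call was the gene model Gm10973 both times (adjusted p by limma 0.00522 and 0.0112). Leaving out each library gave 0 to 1 calls in that comparison, and 0 each time in T96K/T96K minus T96K/+ and in females minus males. Array weights called 25 genes in females minus males (6 higher, 19 lower in females), among them Stat2 (0.97), Bccip (−0.60), Tes (−0.60) and Uqcrc2 (−0.45). Genes at an unadjusted p under 0.05 ranged from 281 (libraries numbered under 19) to 1744 (array weights) in the main comparison. No paired analysis was possible because the labels name no pairing between libraries. The fit without libraries 25 and 27 was chosen after seeing the data; every other alternative was listed earlier. The sign of a gene's log2 fold change, never called, turned as follows, and the cause was not tested. With marker scores as covariates it was 0.38 for Trem2, 0.00764 for Clec7a, 0.23 for Itgax, 0.090 for Lpl, 0.18 for Gpnmb, 0.30 for Igf1, 0.00669 for Csf1r, 0.037 for Cd9, 0.00338 for Lat2, −0.041 for Pltp, −0.023 for Nos2, 0.031 for Rps6, −0.16 for Hspb1, −0.10 for Chi3l3 and −0.080 for Rarres2. In libraries numbered 19 or above it was −0.49 for Tyrobp, −0.36 for Apoe, −0.70 for Cst7, −0.12 for Plcg2, −0.57 for Lyz2, −0.054 for Ciita, −0.46 for Chi3l3 and −0.20 for Lyve1. In those under 19 it was −0.037 for Tyrobp, 0.50 for Gpnmb and 0.00267 for H2-DMb2, and in those under 25 it was 0.060 for Trem2, 0.16 for Gpnmb and 0.065 for Trac. Without libraries 25 and 27 it was 0.00968 for Trem2 and 0.12 for Gpnmb. The library-number range as a covariate gave −0.19 for Tyrobp and −0.23 for Cst7, depth as a covariate −0.072 for Tyrobp and −0.022 for Cst7, array weights −0.11 for Tyrobp and 0.26 for Gpnmb, and quantile normalization 0.00394 for Csf1r. Leaving out each library gave −0.25 to 0.062 for Trem2, −0.22 to 0.20 for Tyrobp, −0.18 to 0.45 for Cst7, −0.39 to 0.028 for Itgax, −0.35 to 0.10 for Gpnmb, −0.29 to 0.12 for Igf1, −0.40 to 0.031 for Tmem119, −0.27 to 0.12 for Csf1r, −0.11 to 0.21 for Syk, −0.063 to 0.23 for Plcg2 and −0.10 to 0.53 for Gfap. Depth limits the lowest genes. In its poorest compared library Zfp773 had 23 reads, Kcnj8 12, Nos2 5, Ugt8a 3, and Igkc, Lyve1 and Trac 0, against 16553 for Trem2.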
